A study of Mus musculus with 16 samples.

Results

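Liver RNA from chow-fed C57BL/6 mice with a liver-specific knockout of the microRNA miR-33 was compared with liver RNA from chow-fed wild-type mice of the same strain. Members were chosen by their labels alone: 4 libraries carry a chow diet and the liver knockout genotype, and 3 carry a chow diet and the wild-type genotype, so that 7 of the 16 libraries of the study enter. The other 9 libraries, 4 wild type and 5 knockout on high-fat diet, enter as the estimate of spread and as the second diet beside which chow values are set. The name of the deposited table speaks of Alb-Cre, a recombinase driven by the albumin promoter and thus active in hepatocytes, whereas the labels say no more than a liver knockout. Whether the wild-type mice carried a floxed allele or Cre is not stated in the labels, nor are age, sex or the length of the diet. The labels do not say that the libraries came from separate animals, so p-values measure the spread between these libraries, which may be in part technical. The long RNA table holds no row for miR-33 itself, so loss of the targeted microRNA could not be read from these libraries.

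The microRNA miR-33 lies in an intron of Srebf2, the gene of the transcription factor that switches on cholesterol synthesis and uptake when sterols are low. Loaded into Argonaute it pairs through its seed with sites in 3′ untranslated regions and lowers the level or translation of those transcripts. Its best known target in liver is Abca1, the exporter that loads cholesterol onto apolipoprotein A-I, and reported targets also include genes of fatty acid oxidation, bile acid transport and insulin signalling. The comparison addresses which liver transcripts differ when the liver lacks miR-33 on a standard diet.

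The mature microRNA, given by RefSeq on GRCm38.p6 at chr15:82198127-82198147 on the plus strand, is shown with bases 2 to 8, the seed, in capitals. It is followed by short windows of the 3′ untranslated regions of 6 reported targets (mm10, longest GENCODE M21 3′ untranslated region of each gene), in transcript orientation with sites in capitals. These windows are shown because the results on direct targets turn on them: an 8mer site is CAATGCAA, a 7mer-m8 site is CAATGCA and a 7mer-A1 site is AATGCAA.
mmu-miR-33-5p: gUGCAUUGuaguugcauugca
Abca1, chr4:53033783-53033811, minus strand, 3 overlapping or adjacent sites: attCAATGCAATGCActtCAATGCAAcga
Abcg1, chr17:31114996-31115024, plus strand, 2 sites: gcaacgCAATGCAAcgCAATGCAgacagt
Crot, chr5:8966675-8966702, minus strand, 1 site: gttgcaaccaCAATGCAAagtcagatat
Cpt1a, chr19:3385476-3385503, plus strand, 1 site: gagcagttacCAATGCAAttttttactc
Prkaa1, chr15:5181221-5181248, plus strand, 1 site: taaagggagtCAATGCAAatgattttta
Slc25a25, chr2:32414560-32414587, minus strand, 1 site: atgcaaagatCAATGCAAaaatcaccgg

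Total estimated counts ran from 17502937 to 22902669 in the wild-type chow libraries and from 15888436 to 26821573 in the knockout chow libraries. Levels are given in CPM, estimated counts scaled to a common library total after TMM adjustment, and log2 fold changes are knockout over wild type, each with its standard error (SE). A ribosomal RNA gene, CT010467.1, took 2.54% of the counts in wild-type library 3 and 11.3% to 14.6% in the other 6. The hepatocyte markers Alb and Hnf4a were abundant in every library, at 58210 to 71720 CPM and 487 to 661 CPM. On principal components of the 7 libraries the genotypes did not form 2 separate groups. The first component (24.9% of the variance) set wild-type library 3 apart at 54.7 and the second (19.9%) wild-type library 2 at 51.0. The third (18.2%) set knockout library 3 apart at -47.1. The knockout libraries lay from -24.0 to -1.89 on the first component and from -14.9 to 3.23 on the second. Wild-type library 1 lay among them, at -10.69 and -10.75.

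On chow, 1 of 16830 genes passed the test for a genotype difference, a share of 0.00594% (edgeR quasi-likelihood test, Benjamini-Hochberg adjusted p under 0.05). That gene was Hist1h2br (chr13:21833743-21837530, plus strand), a protein-coding gene of the large histone cluster that encodes a core histone H2B. Its level was 0.988, 0.349 and 0.355 CPM in the wild-type libraries and 3.04, 4.61, 2.69 and 4.59 CPM in the knockout libraries. Every knockout library lay above every wild-type library, and the gene rose by 2.68 ± 0.37 (SE) on the log2 scale (adjusted p = 0.0163, edgeR). The call was lost under several alternatives. With the chow libraries alone the log2 fold change was 2.67 with an adjusted p of 0.302 in edgeR, and limma voom gave an adjusted p of 0.0825. Leaving out wild-type library 2, wild-type library 3 or knockout library 2 also ended the call, with adjusted p of 0.142, 0.0944 and 0.0873 in edgeR. At an unadjusted p under 0.05 there were 1001 genes (5.95%), of which 546 were higher (3.24%) and 455 lower (2.7%) in the knockout.

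The H2B genes Hist1h2bq and Hist1h2bk of the same cluster also had higher means in the knockout, without passing. Hist1h2bq stood at 0, 0.117 and 0.178 CPM in wild type and at 2.01, 0.948, 2.27 and 0.265 CPM in knockout, with a log2 fold change of 3.79 ± 0.79 (adjusted p = 0.763, edgeR). Its groups did not overlap, and it passed with DESeq2 (adjusted p = 0.0282) and without knockout library 4 (adjusted p = 0.0344, edgeR). Hist1h2bk had a log2 fold change of 2.71 ± 0.64 with groups that overlapped, since knockout library 3 stood at 0.213 CPM and wild-type library 2 at 0.291 CPM. The histone genes as a whole did not share this: of 56 listed 34 were tested, 10 lay above 0 and 24 below, and their median was -0.09 against 0.00 for all genes tested. The linker histone gene Hist1h1c was at 58.1, 119 and 112 CPM in wild type and 47.8, 49.8, 39.2 and 90.8 CPM in knockout, a log2 fold change of -0.75 ± 0.28 (adjusted p = 0.773). Copies of H2B genes are nearly identical, so the counting may have split reads between them and the level of any single copy is uncertain.

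**Figure D1:**
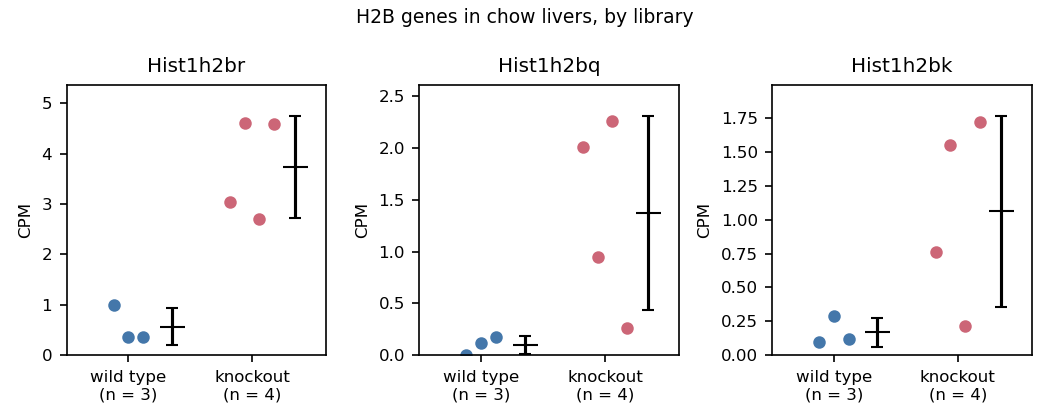
Level in CPM (vertical axis, from 0) of 3 H2B genes in the 3 wild-type and 4 knockout chow libraries, 1 point per library, with mean and SD beside them. All 4 knockout points lie above the wild-type points for Hist1h2br and Hist1h2bq, and knockout library 3 lies among the wild-type points for Hist1h2bk.

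With that gene included, 517 genes (3.07%) were higher in every knockout library than in every wild-type library and 429 (2.55%) were lower in every one. Of these, 90 named genes also had an unadjusted p under 0.01 and averaged 5 CPM or more in whichever genotype was higher, 44 of them higher and 46 lower in the knockout. None passed the adjusted threshold, so the values that follow are descriptions of these 7 libraries. Chosen on the values they show, they are the largest differences and not evidence of a difference.

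Cpt1b, the muscle form of the enzyme that carries long-chain fatty acids into mitochondria, had the largest log2 fold change among the 44, at 1.03 ± 0.26 (adjusted p = 0.763, edgeR). Its level was 3.72, 5.30 and 2.54 CPM in wild type and 8.04, 7.54, 9.28 and 6.76 CPM in knockout. Lpl, the lipase that releases fatty acids from circulating triglyceride, was at 10.2, 6.46 and 8.52 CPM against 13.6, 16.9, 14.9 and 13.1 CPM, a log2 fold change of 0.80 ± 0.23. Slc7a8, a transporter of neutral amino acids, had a mean of 2.88 ± 0.78 CPM (SD, n = 3) in wild type and 5.37 ± 0.75 CPM (SD, n = 4) in knockout. Cd300ld, which encodes a receptor of myeloid cells, had a log2 fold change of 0.81 ± 0.25, with wild-type library 1 nearest to the knockout. That library also had the highest sum of macrophage markers in wild type, 585 CPM against 375 and 405 CPM, beside 580 to 640 CPM in knockout, and the part of these cells in the result was not tested. In bulk liver a different number of cells of a type and a different amount of RNA per cell cannot be told apart. Other large differences of this direction were in Zfp189, a zinc finger gene (0.82), Vps50, a subunit of an endosomal tethering complex (0.78), Exoc3l2 (0.78), Samd4, an RNA-binding repressor of translation (0.72), Ptgs1, a cyclooxygenase (0.71), Rgl1 (0.65) and Pcnt, a centrosome scaffold (0.65, log2 fold changes).

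Mvk, the mevalonate kinase gene, had the lowest log2 fold change among the 46, at -1.17 ± 0.28 (adjusted p = 0.763, edgeR). Cul7, a cullin scaffold of a ubiquitin ligase on chromosome 17, was at 10.96, 10.5 and 12.6 CPM in wild type and 4.62, 6.12, 7.22 and 5.34 CPM in knockout, a log2 fold change of -0.97 ± 0.22. Dnph1, a nucleotide hydrolase gene on the same chromosome (chr17:46496789-46499624, with Cul7 at chr17:46650337-46664364), had a mean of 5.36 ± 1.02 CPM (SD, n = 3) in wild type and 3.01 ± 0.75 CPM (SD, n = 4) in knockout. Ikbke, a kinase of innate immune signalling, was at 5.79, 5.82 and 10.7 CPM against 4.56, 2.20, 4.75 and 4.77 CPM. Its wild-type mean leaned on library 3, yet all 4 knockout libraries were below all 3. Btrc, the F-box subunit that recognises phosphorylated substrates, and Cuedc2 lie on chromosome 19 (chr19:45363734-45530013 and chr19:46329812-46338702) with log2 fold changes of -0.68 ± 0.20 and -0.66 ± 0.21. The others were Zfp276 (-0.73), Smyd1, a muscle histone methyltransferase (-0.71), Fam47e (-0.69), Abhd18 (-0.67), Fam92a (-0.64) and Pkig, an inhibitor of protein kinase A (-0.59, log2 fold changes). Adjusted p was 0.763 to 0.773 for each of the genes named here in either direction.

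**Figure D2:**
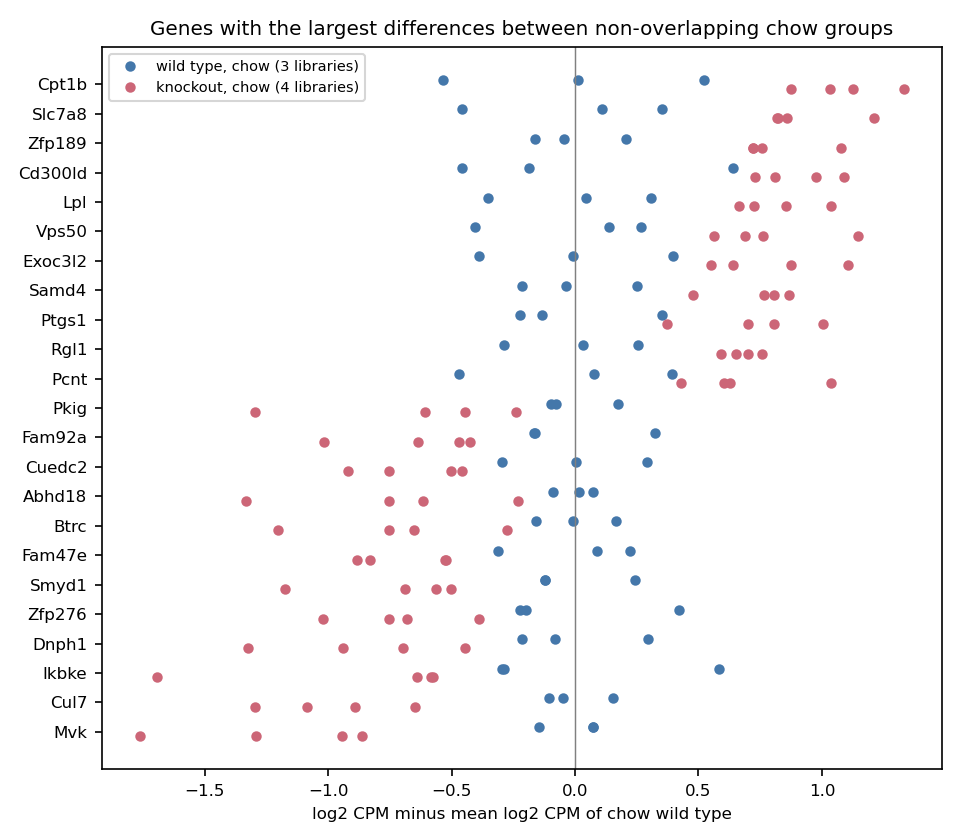
Log2 CPM of each chow library (points) minus the mean log2 CPM of the wild-type chow libraries (vertical line at 0), for named genes among the largest differences in each direction whose groups do not overlap. The genes were chosen for this separation, none passed the adjusted threshold, and the extreme rows are Cpt1b above and Mvk below.

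Srebf2 and Abca1 were examined first among the genes tied to miR-33. Srebf2, the host gene, was at 65.4, 53.4 and 55.6 CPM in wild type and 47.3, 59.1, 57.7 and 52.0 CPM in knockout. The groups overlapped, with a log2 fold change of -0.11 ± 0.12 (adjusted p = 0.944, edgeR). Abca1 was at 228, 255 and 212 CPM in wild type and 245, 276, 271 and 289 CPM in knockout. Knockout library 1 lay below wild-type library 2 and the other 3 lay above every wild-type library, giving a log2 fold change of 0.22 ± 0.09 (unadjusted p = 0.0275, adjusted p = 0.812, edgeR).

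Among 26 reported targets, all tested, 20 had a log2 fold change above 0 and 6 below, where 50.1% of all genes lay above 0. Their median was 0.08, ranging from 0.04 to 0.13 with 1 chow library left out, against 0.00 for all genes. None passed, and 1, Slc25a25, was higher in every knockout library, where 3.07% of all genes were. Slc25a25, a mitochondrial carrier of adenine nucleotides, was at 150, 83.6 and 142 CPM in wild type and 169, 160, 185 and 195 CPM in knockout (log2 fold change 0.50 ± 0.31, adjusted p = 0.900). The wild-type spread came from library 2.

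Abcg1, which exports cholesterol to high-density lipoprotein, was at 5.27, 4.31 and 3.19 CPM against 5.22, 5.38, 4.25 and 6.14 CPM, a log2 fold change of 0.30 ± 0.21 with overlapping groups. Abcb11, the bile salt export pump, had a mean of 269 ± 44.8 CPM (SD, n = 3) in wild type and 318 ± 33.2 CPM (SD, n = 4) in knockout (0.24 ± 0.14). Cyp7a1, which begins bile acid synthesis, ranged from 73.3 to 136 CPM in wild type and from 26.5 to 171 CPM in knockout, so that its difference of 0.04 ± 0.57 is not resolved. Npc1, which moves cholesterol out of lysosomes, had a log2 fold change of -0.01 ± 0.10.

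Other targets of fatty acid and energy metabolism had groups that overlapped. Crot, a carnitine acyltransferase of peroxisomes, had 1252 ± 86.1 CPM (SD, n = 3) in wild type and 1340 ± 123 CPM (SD, n = 4) in knockout (log2 fold change 0.10 ± 0.11). Cpt1a, the liver form of the mitochondrial fatty acid importer, was at 914, 1160 and 868 CPM against 870, 920, 1140 and 1007 CPM (0.01 ± 0.14). Hadhb, a subunit of the trifunctional oxidation enzyme, had a log2 fold change of 0.17 ± 0.11. Prkaa1, a catalytic subunit of the energy sensor AMPK, had 0.22 ± 0.13, and Irs2, an adaptor of the insulin receptor, 0.20 ± 0.27. Pck1 and G6pc of gluconeogenesis had 0.03 ± 0.26 and 0.23 ± 0.34, while the regulators Foxo3 and Ppargc1a had -0.19 ± 0.14 and -0.12 ± 0.20.

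Seed sites were then read for every gene with a 3′ untranslated region, without regard to published targets. Of the 26 reported targets, 11 held an 8mer, 4 a 7mer-m8 and no 8mer, 2 a 7mer-A1 alone, and 9 no site in the longest untranslated region. Over 13161 tested genes, 304 held an 8mer and had a median log2 fold change of 0.02. For the 795 with a 7mer-m8 the median was 0.03, for the 1145 with a 7mer-A1 alone 0.01, and for the 10917 without a site -0.01. The shift between classes was thus a few hundredths of a log2 unit, within quartiles of -0.09 to 0.16 for the 8mer class. Genes higher in every knockout library made up 2.63% of the 8mer class, 4.53% of the 7mer-m8 class, 2.88% of the 7mer-A1 class and 2.92% of genes without a site. Median untranslated lengths also differed, at 2970 bases for the 8mer class and 1138 bases for genes without a site, and the part of length in these shares was not tested.

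Among 97 genes with 3 or more sites, 7 were higher in every knockout library and 1 was lower in every one, where 3.07% and 2.55% of all genes were. Clasp1, a microtubule-stabilising protein, was at 8.70, 12.1 and 12.2 CPM in wild type and 13.7, 16.1, 13.0 and 15.7 CPM in knockout (log2 fold change 0.42 ± 0.12, adjusted p = 0.773, edgeR). Zfp729a was at 10.3 to 10.9 CPM in wild type and 12.4 to 13.0 CPM in knockout (0.26 ± 0.10). The median of the 97 was 0.02, close to the other classes.

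**Figure D3:**
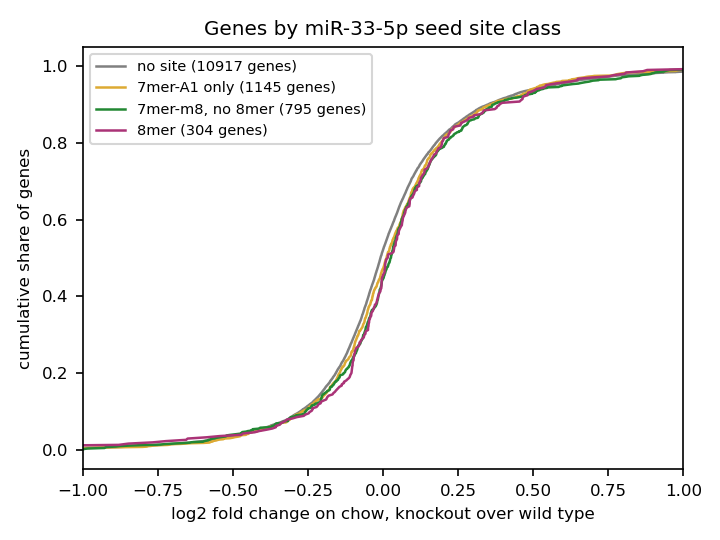
Cumulative share of genes (vertical axis) against log2 fold change on chow (horizontal axis, cropped at -1 and 1) for 4 classes of miR-33-5p seed site. The 4 curves nearly coincide, with class medians from -0.01 to 0.03.

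Cholesterol synthesis enzymes were lower in the knockout as a list on chow. All 21 were tested, 21 had a log2 fold change below 0 where 49.9% of all genes did, and the median was -0.25. The log2 fold changes reached from -1.17 to -0.00, and none passed the adjusted threshold. Every knockout library was below every wild-type library for 3 of the 21, Mvk, Lss and Mvd, where 2.55% of all genes were. The list median stayed between -0.37 and -0.19 with any 1 chow library left out, and the number of members below 0 between 18 and 21. Enzymes of this pathway answer together to SREBP-2, so they are not 21 separate observations. This list too was chosen with earlier results of these data known.

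The early mevalonate steps differed in size. Hmgcs1, the HMG-CoA synthase, had a log2 fold change of -0.13 ± 0.32 with groups that overlapped. Mvk, the first kinase of the pathway, was at 6.16, 7.16 and 7.16 CPM in wild type and 2.01, 3.75, 3.54 and 2.78 CPM in knockout, so that all 4 knockout libraries were lower. Mvd, the decarboxylase that follows, was at 4.75, 5.88 and 4.08 CPM against 1.74, 3.66, 2.27 and 3.36 CPM (-0.81 ± 0.47, adjusted p = 0.891, edgeR). Fdps, which joins isoprenes to farnesyl diphosphate, was at 31.5, 22.5 and 22.6 CPM against 14.2, 22.7, 14.0 and 12.7 CPM. There only knockout library 2 reached the wild-type range.

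From squalene onward, Sqle, the squalene epoxidase, was at 33.8, 31.4 and 16.8 CPM in wild type and 9.89, 23.3, 17.4 and 9.63 CPM in knockout (log2 fold change -0.86 ± 0.68). Lss, the cyclase that closes the sterol rings, was at 15.1, 13.2 and 14.0 CPM against 7.17, 13.1, 7.93 and 8.21 CPM (-0.62 ± 0.28, adjusted p = 0.827). Dhcr7, which makes cholesterol from its direct precursor, was at 22.9, 27.4 and 36.98 CPM against 15.9, 18.7, 24.4 and 21.6 CPM (-0.53 ± 0.27). Cyp51, the sterol demethylase, was at 90.0, 83.6 and 70.1 CPM against 47.6, 108, 61.2 and 44.1 CPM. Knockout library 2 was the highest knockout library for 14 of the 21 enzymes and knockout library 4 the lowest for 12. Summed over the list, wild-type libraries held 2265, 2047 and 2082 CPM and knockout libraries 1725, 2186, 1863 and 1809 CPM, so that the sum of knockout library 2 lay within the wild-type range. Without it the list median was -0.37.

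Mvk shares its upstream region with Mmab, a neighbouring gene on the other strand that encodes an enzyme of cobalamin metabolism, and Mmab was lower in the same libraries. Mmab was at 18.4, 19.6 and 24.3 CPM in wild type and 11.9, 16.5, 15.7 and 14.3 CPM in knockout, with no overlap and a log2 fold change of -0.51 ± 0.15 (adjusted p = 0.773, edgeR). It was named after its values were seen, as the neighbour of Mvk. The 208 bases between the 2 genes, at chr5:114444061-114444268 (GRCm38.p6, RefSeq, plus strand), are shown because both genes start from it and both were lower in all 4 knockout libraries, with each CCAAT or its reverse complement ATTGG in capitals.
Mvk and Mmab: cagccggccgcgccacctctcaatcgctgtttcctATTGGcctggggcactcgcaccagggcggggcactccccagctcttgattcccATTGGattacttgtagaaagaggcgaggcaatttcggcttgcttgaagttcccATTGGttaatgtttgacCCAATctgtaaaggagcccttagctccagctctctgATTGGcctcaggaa
The letters occur 5 times here without overlap. At least 1 occurs in 37.4% of 32851 promoter windows of 300 bases, and 5 or more in 0.271%. An exact sterol regulatory element motif, searched on both strands, occurs in 0.0913% of the windows and in neither the Mvk nor the Mmab window, which says only that those letters are not there.

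Regulators of sterol balance differed less than the enzymes. Of 13 tested, 3 lay above 0 and the median was -0.11. Insig1, which holds the SREBP complex in the endoplasmic reticulum, was at 192, 184 and 196 CPM in wild type and 126, 224, 150 and 112 CPM in knockout (log2 fold change -0.32 ± 0.25). Knockout library 2 was again the high one. Srebf1, the factor of fatty acid synthesis, had a log2 fold change of -0.45 ± 0.27 with overlapping groups. Rnf145, a ubiquitin ligase that acts on sterol sensing, was higher in every knockout library, at 20.1 to 24.7 CPM against 16.4 to 19.9 CPM (0.29 ± 0.19).

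Markers of liver sinusoidal endothelium, the fenestrated lining of the hepatic capillaries, were higher in the knockout as a list on chow. Of 19 tested, 18 lay above 0, with a median of 0.38. Groups did not overlap, with the knockout higher, for 7 of 19, against 3.07% of all genes, and 10 had an unadjusted p under 0.05 with the knockout higher, against 3.24% of all genes. None passed the adjusted threshold. The list was chosen with earlier results of these data known, and its members vary together between libraries. These counts therefore describe the 7 libraries, are not separate observations and are not evidence of a difference.

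Stab2, a scavenger receptor that clears hyaluronan, was at 38.2, 35.5 and 32.5 CPM in wild type and 43.3, 57.3, 51.3 and 44.6 CPM in knockout (log2 fold change 0.47 ± 0.15, adjusted p = 0.773, edgeR). Its relative Stab1 was at 26.2, 23 and 24.3 CPM against 35.6, 40.5, 30.7 and 35.7 CPM (0.54 ± 0.19). Mrc1, the mannose receptor, was at 35.8, 27.2 and 27.8 CPM against 44.7, 59.1, 43.2 and 41.0 CPM (0.64 ± 0.20). Each knockout library exceeded each wild-type library for these 3 genes. The vascular endothelial growth factor receptor Kdr was at 41.2 to 47.9 CPM in wild type and 54.4 to 64.8 CPM in knockout, and the TGF-beta co-receptor Eng at 17.4 to 21.4 CPM against 21.7 to 28.9 CPM. Cd93 and Clec1b were the others without overlap. Lyve1, Pecam1, Tie1 and Selp, which the list also holds, had log2 fold changes of 0.20 ± 0.35, 0.24 ± 0.22, 0.16 ± 0.23 and -0.22 ± 0.26.

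Summed over the 19 markers, wild-type libraries held 384, 303 and 303 CPM and knockout libraries 413, 485, 412 and 432 CPM. Wild-type library 1 was the highest wild-type library for 16 of the 19 and knockout library 2 the highest knockout library for 12. With 1 library left out the median ran from 0.26 to 0.46, while the number with an unadjusted p under 0.05 ran from 5 without wild-type library 3 to 13 without wild-type library 1. Over all 16830 genes these counts were 356 and 866, with the knockout higher. Bmp6, which sinusoidal endothelium is known to secrete as the signal for hepcidin, was at 4.66, 5.30 and 4.91 CPM in wild type and 7.66, 7.58, 6.94 and 6.71 CPM in knockout (0.55 ± 0.19, adjusted p = 0.773).

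Kupffer cell and macrophage markers leaned the same way, with groups that overlapped. All 16 tested lay above 0, with a median log2 fold change of 0.56. No marker was higher in every knockout library, where 3.07% of all genes were, so that count says little about these markers. Clec4f, a lectin of Kupffer cells, was at 53.2, 27.7 and 32.7 CPM in wild type and 50.8, 59.6, 68.5 and 62.4 CPM in knockout. Csf1r, the receptor of the macrophage growth factor, was at 28.04, 12.4 and 14.5 CPM against 26.5, 35, 36.8 and 25.2 CPM (0.74 ± 0.30). Wild-type library 1 stood within the knockout range for both genes. It was the highest wild-type library for 15 of the 16 markers, and the sums were 585, 375 and 405 CPM in wild type against 580 to 640 CPM in knockout. An unadjusted p under 0.05 with the knockout higher was found for 4 of the 16, against 3.24% of all genes. Without wild-type library 1 the median was 0.96 and 12 had such a p, as did 866 of all 16830 genes. Without wild-type library 2 the median was 0.34. No marker had such a p without wild-type library 2, wild-type library 3 or knockout library 3, where 532, 356 and 566 of all genes did. Without knockout library 2 or 4, 1 marker had it.

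Markers of lymphocytes and neutrophils stood at low levels, while MHC class II genes summed to 59.2 to 153 CPM in wild type and 94.4 to 139.7 CPM in knockout. Ctss, a protease of MHC class II antigen processing that is made by macrophages, was at 16.6, 11.8 and 11.6 CPM in wild type and 21.5, 17.9, 23.6 and 20.1 CPM in knockout (log2 fold change 0.63 ± 0.19, adjusted p = 0.773, edgeR). The 8 tested MHC class II genes had a median of 0.23, which was 0.87 without wild-type library 1 and -0.06 without wild-type library 3. T and NK cell markers (14 tested) had a median of 0.49 (0.27 without knockout library 1, 0.95 without wild-type library 1) with sums of 3.02 to 6.87 CPM in wild type and 5.34 to 7.22 CPM in knockout. B and plasma cell markers (9 tested) had a median of 0.54 with sums of 10.9 to 15.1 CPM against 11.5 to 20.1 CPM. For neutrophils 6 of 12 markers were tested, Ly6g had no row, and the sums were 2.43 to 3.29 CPM against 2.62 to 6.89 CPM. Their median log2 fold change of 1.59 rests on few counts. It was 0.41 without knockout library 4, where 5 were tested, and 1.86 without knockout library 3. S100a8, a calcium-binding protein of neutrophils, was at 0.188, 0.175 and 0.118 CPM against 0.761, 0.646, 0.142 and 0.795 CPM, with knockout library 3 in the wild-type range.

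Inflammatory and matrix genes, many of which macrophages, endothelium and stellate cells are known to express, also had medians above 0. Among 21 inflammatory genes 16 lay above 0, the median was 0.62, and 3 were higher in every knockout library, Tlr4 and Ccl2 among them, where 3.07% of all genes were. The median was 0.28 without wild-type library 2 and 0.34 without knockout library 4. Tlr4, the lipopolysaccharide receptor, was at 2.02, 1.11 and 0.828 CPM in wild type and 2.12, 2.11, 2.76 and 2.16 CPM in knockout, so that wild-type library 1 came close. Among 24 fibrosis and matrix genes 20 lay above 0 with a median of 0.27. Tgfb1, the profibrotic cytokine, was at 6.87, 5.88 and 5.56 CPM against 8.59, 9.05, 9.21 and 7.07 CPM (0.47 ± 0.14, adjusted p = 0.773, edgeR). Col4a2, a chain of basement membrane collagen, was at 13.4 to 15.1 CPM against 16.6 to 18.1 CPM (0.32 ± 0.14), and Mmp2, a matrix protease, at 1.42 to 1.69 CPM against 2.06 to 2.69 CPM. Without wild-type library 3 the matrix median was 0.11. The summed levels did not follow these medians. Mean sums were 326.8 CPM in wild type and 331.2 CPM in knockout for inflammatory genes, and 1219 and 1171 CPM for matrix genes. Mean sums over endothelial and macrophage markers were higher in the knockout, and the part of these cells in the result was not tested.

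Markers of hepatocytes had a median near that of all genes. Of 16 tested, 9 lay above 0 and the median was 0.02. None separated the groups, where 3.07% of all genes were higher and 2.55% lower in every knockout library. The sums were 107600 to 114800 CPM in wild type and 109600 to 119900 CPM in knockout. Stellate cell markers (15 tested) had a median of 0.15, which was 0.04 without knockout library 2 and 0.23 without knockout library 3, with Des, the desmin of stellate and muscle cells, at 2.78 to 3.10 CPM against 3.49 to 4.89 CPM and no overlap. Cholangiocyte markers (8 tested) had a median of -0.16, erythroid markers (7 tested) -0.00 and adipocyte markers (4 tested) -0.16. With 1 library left out, the cholangiocyte median ran from -0.42 without wild-type library 3 to 0.08 without wild-type library 2, and the adipocyte median from -0.31 without wild-type library 3 to 0.09 without wild-type library 1. Among defining markers of other tissues, Prss1 of the exocrine pancreas had no row, and Adipoq of adipocytes had at most 3 estimated counts in any chow library.

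**Figure D4:**
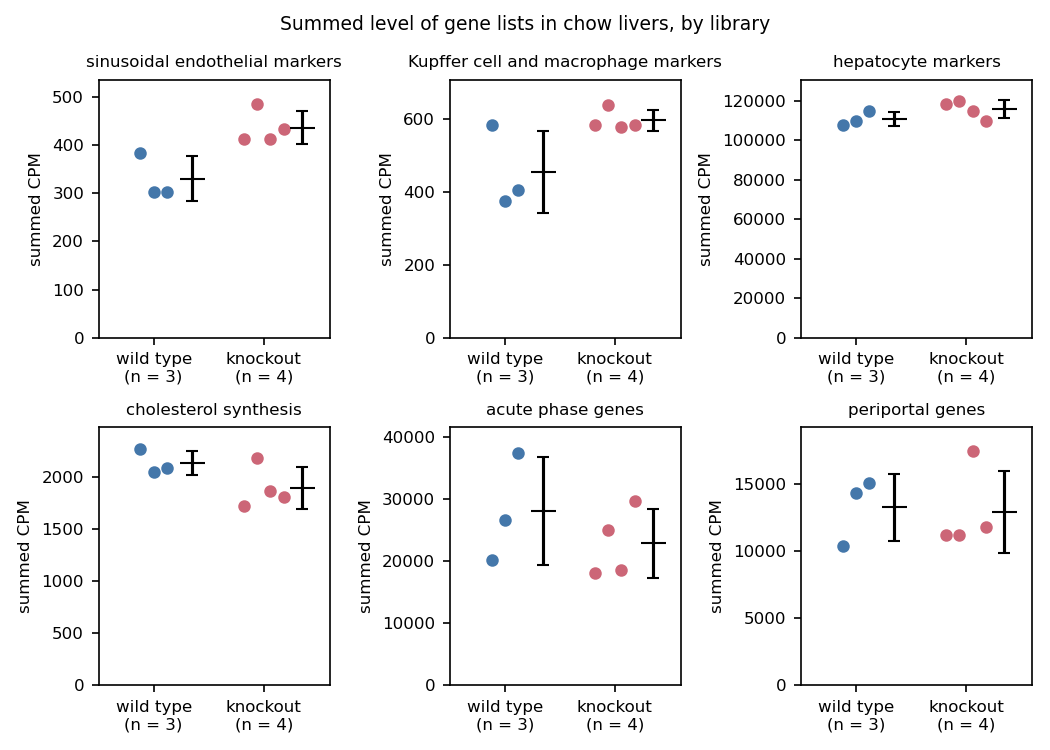
Summed CPM of 6 gene lists (vertical axes from 0) in each chow library, with mean and SD per genotype. Endothelial sums of 412 to 485 CPM in the knockout lie above the 303 to 384 CPM of wild type, whereas wild-type library 1 reaches the knockout range for macrophage markers and the other 4 lists overlap.

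Lipid genes of hepatocytes had list medians near 0. In fatty acid oxidation and ketogenesis (22 tested) the median was 0.02, and Ehhadh, a bifunctional enzyme of peroxisomes, was at 1002, 1559 and 730 CPM in wild type and 2047, 1788, 1752 and 1037 CPM in knockout (log2 fold change 0.59 ± 0.26, adjusted p = 0.827, edgeR). In fatty acid synthesis (15 tested) the median was -0.01. There Acly, which makes cytosolic acetyl-CoA, was lower in every knockout library, at 34.6 to 44.5 CPM against 48.6 to 71.0 CPM (-0.53 ± 0.26). Fasn was at 80.4 to 95.7 CPM in wild type and 48.2 to 103 CPM in knockout. Plin5, a lipid droplet coat that tethers mitochondria, was at 41.4, 36.6 and 53.9 CPM against 76.9, 66, 50.4 and 48.8 CPM (0.46 ± 0.19), with overlap through wild-type library 3. Sterol efflux and HDL genes (19 tested), apolipoproteins and VLDL assembly (15 tested) and bile acid genes (18 tested) had medians of 0.03, 0.00 and 0.03.

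Glucose and stress genes had rounded medians from -0.13 to 0.13 with all chow libraries. Gluconeogenesis and insulin signalling (19 tested) had a median of -0.01, and Pklr, liver pyruvate kinase, was lower in every knockout library at 108 to 118 CPM against 118 to 171 CPM (log2 fold change -0.31 ± 0.18). Pygl, which breaks down liver glycogen, was at 266 to 276 CPM in wild type and 246 to 258 CPM in knockout (-0.12 ± 0.08). Hmox1, the haem oxygenase induced by NRF2, was at 13.8, 8.91 and 9.59 CPM against 17.6, 17.2, 12.5 and 17.8 CPM (0.60 ± 0.16, adjusted p = 0.763, edgeR). Knockout library 3 lay below wild-type library 1 for it. Txnrd1, a thioredoxin reductase of the same response, was at 92.3 to 95.2 CPM in wild type and 99.2 to 123 CPM in knockout. The NRF2 list (16 tested) had a median of 0.13, from 0.01 without wild-type library 2 to 0.24 without wild-type library 3. The medians were 0.05 for drug-metabolising enzymes (20 tested) and -0.13 for genes of the unfolded protein response (18 tested), the latter -0.05 without wild-type library 2 and -0.26 without knockout library 4.

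Secreted liver proteins had medians below 0 that depended on single libraries to different extents. Acute phase genes (20 tested) had a median of -0.26 with 17 below 0, and wild-type library 3 was the highest wild-type library for 16 of them. Serpina3n, a protease inhibitor of the acute phase, was at 540, 690 and 1552 CPM in wild type and 381, 616, 595 and 882 CPM in knockout. Without wild-type library 3 the list median was 0.05 and 14 members lay above 0. Complement and coagulation factors (21 tested) had 19 below 0 and a median of -0.10, between -0.18 and -0.04 with 1 library left out. F11, coagulation factor XI, was at 42.2, 45.2 and 42.7 CPM in wild type and 32.3 to 33 CPM in knockout, with no overlap (log2 fold change -0.41 ± 0.16, adjusted p = 0.773, edgeR).

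Zonation genes depended on single libraries. Periportal genes (14 tested) had 12 below 0 and a median of -0.06, which was -0.28 without knockout library 3 and -0.23 without wild-type library 1, each with all 14 below 0, and 0.06 without wild-type library 3. Knockout library 3 was the highest knockout library for 13 of them, with a sum of 17400 CPM against 11150 to 11800 CPM in the other knockout libraries and 10370 to 15010 CPM in wild type. Pericentral genes (13 tested) had a median of 0.05, from 0.00 without wild-type library 3 to 0.13 without wild-type library 1. The clock genes Dbp and Per2 had log2 fold changes of -0.30 ± 0.12 and -0.35 ± 0.14 with overlapping groups, and the 17 clock genes tested a median of -0.02. Igf1, the growth hormone target, was at 585, 848 and 577 CPM in wild type and 552, 604, 415 and 553 CPM in knockout (-0.34 ± 0.14). Growth hormone dependent genes (19 tested) had a median of -0.12 with 4 above 0, and without wild-type library 2 it was 0.01 with 10 above 0.

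Iron genes had members in both directions. Hfe, which senses iron with the transferrin receptor and promotes hepcidin, was at 52.1, 48.0 and 56.4 CPM in wild type and 42.9, 46.4, 41.4 and 42.0 CPM in knockout (log2 fold change -0.27 ± 0.08, adjusted p = 0.773, edgeR). Tfrc, the transferrin receptor, was at 18.4, 15.1 and 17.7 CPM against 19.0, 28, 35.3 and 20.6 CPM (0.59 ± 0.30). Neither overlapped between groups. Hamp, the gene of hepcidin, ranged from 211 to 663 CPM in wild type and from 247 to 462 CPM in knockout (-0.18 ± 0.61). The 18 iron genes had a median of 0.00.

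Genes near Srebf2 were examined because the knockout alters the host locus. Of 186 genes with a limit within 5 Mb of it, 152 were tested, 74 lay above 0 and the median was -0.01. Every knockout library was above every wild-type library for 3 and below for 4, near the shares of all genes. Named ones were Parvb, an actin-linking protein (0.58 ± 0.21), Ift27, a subunit of ciliary transport (-0.41 ± 0.14), Ttll12 (-0.25 ± 0.13), Slc25a17, a peroxisomal carrier (-0.19 ± 0.11) and Atf4, the factor of the amino acid stress response (0.11 ± 0.08, log2 fold changes).

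Chow values were set beside the same contrast on high-fat diet, which uses other libraries. Hist1h2br rose on high-fat diet too, by 3.18 ± 0.33 on the log2 scale from 0.370 to 3.47 CPM, and the difference of the chow from the high-fat log2 fold change was -0.50 ± 0.51 (adjusted p = 0.901, edgeR). Abca1 had 0.32 ± 0.08 on high-fat diet and a difference of -0.09 ± 0.12. Hfe had -0.23 ± 0.07 on high-fat diet and a difference of -0.04 ± 0.11. No gene passed the test of the difference between diets, a share of 0.0% of 16830, and 1110 (6.6%) had an unadjusted p under 0.05, while DESeq2 called 2.

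Several lists had medians of opposite sign on the 2 diets. Only chow libraries were left out in turn, so how far the high-fat medians rest on single libraries was not tested. Endothelial markers had a median of 0.38 on chow and -0.36 on high-fat diet, where 2 of 19 lay above 0 against 51.1% of all genes. An unadjusted p under 0.05 for the difference (edgeR) was found for 15 of the 19, against 6.6% of all genes. For Stab2 the high-fat log2 fold change was -0.44 ± 0.13 and the difference 0.91 ± 0.20 (adjusted p = 0.416, edgeR). Cholesterol synthesis enzymes had a median of -0.25 on chow and 0.16 on high-fat diet, where 20 of 21 lay above 0. Only 2 of the 21 had an unadjusted p under 0.05 for the difference (edgeR), a count near the 6.6% of all genes. Mvk had 0.19 ± 0.23 on high-fat diet and a difference of -1.36 ± 0.36 (adjusted p = 0.571). Fibrosis and matrix genes went from 0.27 to -0.32, inflammatory genes from 0.62 to -0.26 and macrophage markers from 0.56 to -0.15. Cpt1b had -0.45 ± 0.22 on high-fat diet and a difference of 1.48 ± 0.35 (adjusted p = 0.416), and Lpl -0.35 ± 0.18 and 1.15 ± 0.29 (adjusted p = 0.552). Members of a list vary together between libraries, so the number of members with such a p does not count separate observations.

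**Figure D5:**
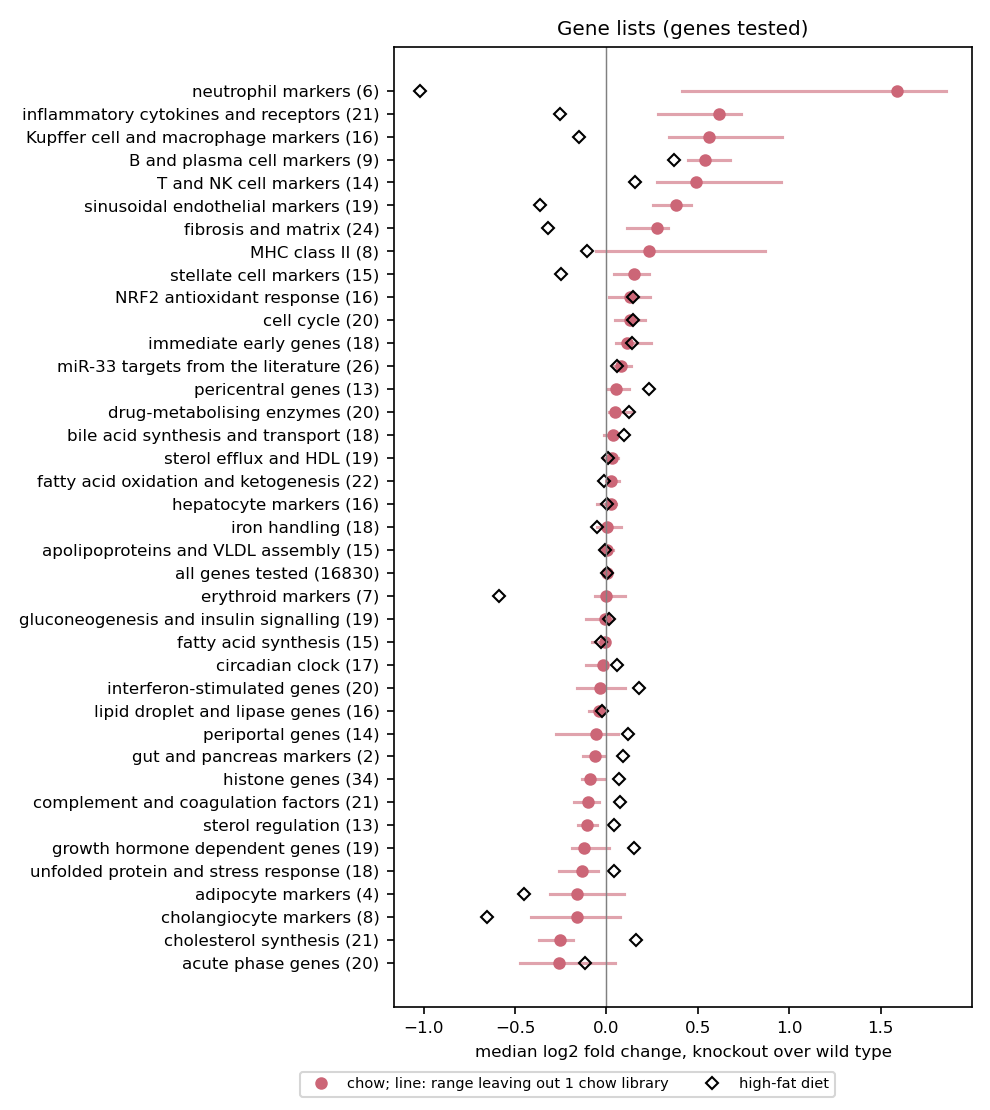
Median log2 fold change (horizontal axis) of each gene list, with the number of genes tested, on chow (filled, with a line for the range when 1 chow library is left out) and on high-fat diet (open diamonds). The endothelial, matrix and inflammatory medians lie above 0 on chow and below 0 on high-fat diet, and cholesterol synthesis the reverse.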

How the data were processed

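The labels' protocols describe snap-frozen liver, total RNA with ribosomal RNA removed, quality-trimmed reads, alignment by TopHat2 and quantification by Cuffdiff. The submitters' processing notes name mm10. Tool versions, strand setting and batches are not stated, so values of overlapping or antisense genes are uncertain. The labels also name a small RNA library kit, which was not reconciled with a table of long RNA.

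The table deposited by the authors holds estimated counts, 1 column per library and 23258 rows, each with a total of at least 10. Between 32.8% and 37.9% of a library's values were exactly whole, and how the fractions arose is not stated. Of 22 gene names turned into dates, 21 were recovered. Printed gene ends are those of GENCODE M21, since the deposited end lay 1 base further in 20946 of 21366 rows with the same start.

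Estimated counts were rounded. The 16830 genes kept by filterByExpr were fitted in edgeR 4.0.16 (R 4.3.3) on all 16 libraries with TMM scaling and a robust quasi-likelihood model (12 residual degrees of freedom). Two-sided p-values were adjusted by Benjamini-Hochberg over all genes, with a threshold of 0.05. The SE is the absolute log2 fold change over the square root of F. The 37 lists (620 entries) are described by counts and medians, with no test. Named genes were Srebf2, Abca1, genes that passed, the 12 largest differences each way (unadjusted p under 0.01, no overlap, at least 5 CPM) and the 3 smallest p of each list, while others were named for their role after values were seen. Some genes that this rule or a list names are not reported here. Members and lists were chosen with earlier results of these data known. The fit was checked on simulated data drawn from its own estimate of spread, which cannot vouch for the calls made here. Alternatives were DESeq2 1.42.0, voom of limma 3.58.1, other scaling and filters, chow libraries alone, removal of CT010467.1 and leaving out each chow library.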

Additional observations from a re-analysis of the deposited data

Results flagged for a closer look

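Among 173 groups of 4 knockout libraries examined, 18 had 1 library whose gap to the nearest other, as a share of the group's range, exceeded Dixon's 95% critical value, and chance flags about 1 in 20 groups. Knockout library 3 stood apart in 9 of them. It was high for Thrsp (26.98 CPM, gap 0.854), Por (525 CPM, gap 0.891), Tlr4 (2.76 CPM, gap 0.918), Sds (186 CPM, gap 0.895), Cdh1 (16.2 CPM, gap 0.849), Gzma (0.567 CPM, gap 0.908) and the periportal sum (17400 CPM, gap 0.896). It was low for Hmox1 (12.5 CPM, gap 0.884) and for the sum of B and plasma cell markers (11.5 CPM, gap 0.96).

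Knockout library 2 was high for Abcb11 (367 CPM, gap 0.833), Apob (13510 CPM, gap 0.847), F5 (1115 CPM, gap 0.849) and the sum of macrophage markers (640 CPM, gap 0.948). It was low for Ikbke (2.20 CPM, gap 0.92) and Cidec (8.96 CPM, gap 0.875). Knockout library 1 was high for Zfp189 (11.1 CPM, gap 0.911) and Dgat2 (502 CPM, gap 0.873), and knockout library 4 for Slc7a8 (6.49 CPM, gap 0.91).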

How the results depend on the processing

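On chow 1 gene passed, and the count stayed 1 with RLE scaling, no filter, a stricter filter and without CT010467.1. DESeq2 called 2, limma voom 0 (828 genes at an unadjusted p under 0.05) and edgeR on the chow libraries alone 0 (701 of 15045). Leaving out 1 library gave 0 to 3 genes: 0 without knockout library 2 or wild-type library 2, 2 without wild-type library 1 or 3, and 3 without knockout library 4. For the difference between diets, 0 genes passed (1110 at an unadjusted p under 0.05), DESeq2 called 2, and leaving out 1 chow library gave 0 to 4, the 4 without wild-type library 1. Of 134 named genes, 126 kept the sign of their log2 fold change under each of the 14 alternatives that gave them a value (1852 values, since filters dropped some genes). Most of these genes were chosen for a small p or separate groups in these same data. That choice favours a stable sign, so the count is not an independent check. With 1 library left out, log2 fold changes ranged from -0.35 to 0.044 for Angptl4, -0.86 to 0.0080 for Serpina3n, -0.010 to 0.91 for H2-Aa, -0.66 to 0.081 for Sds, -0.48 to 0.024 for Sox9, -0.45 to 0.085 for Spp1, -1.35 to 0.15 for Cfd and -0.072 to 0.073 for Fabp2; the cause was not tested. List medians were recomputed with RLE scaling and with each chow library left out, and 30 of 312 moved by more than the SD of the list's median deviation over the knockout libraries. No paired analysis was possible because the labels give no replicate numbers and the numbers used here only name libraries. Levels under 1 CPM, such as those of the H2B genes in wild type, rest on few counts.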
